A study of Homo sapiens with 12 samples.

Results

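The liver X receptors (LXRs) and 5 of their direct target genes were described across all 12 libraries of HepaRG cells. Rows of the gene table were taken by symbol, which gave 7 of 58735 annotated genes: the receptors NR1H2 and NR1H3, the sterol exporters ABCA1 and ABCG1, the ubiquitin ligase MYLIP, the phospholipid acyltransferase LPCAT3 and the phosphodiesterase SMPDL3A. HepaRG is a human hepatic line whose cells can adopt hepatocyte-like or bile duct-like states, and the labels give all libraries a wild-type genotype. Each of 4 groups had 3 libraries of poly(A)-selected RNA. PA+BMS cells had BMS-309403, a fatty acid-binding protein inhibitor, at 50 µM over 24 h and deuterium-labelled palmitate (PA) at 400 µM over 4 h. PA+OA cells had the same palmitate, a saturated fatty acid, with 200 µM oleic acid (OA), a monounsaturated fatty acid, over 4 h. PA cells had palmitate alone, and control cells were untreated. No group had oleic acid or BMS-309403 without palmitate, the BMS-309403 exposure was longer than the fatty acid exposure, and no vehicle is named for the control cells. The labels do not say that replicates were separate cultures, so p-values measure a spread between libraries that may be technical.

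LXRs are nuclear receptors that bind oxysterols and desmosterol, pair with a retinoid X receptor (RXR) and sit on paired half-sites in DNA. In liver and macrophages they raise genes that export cholesterol, limit uptake of low-density lipoprotein (LDL) and remodel phospholipids, and they also drive fatty acid synthesis. LXR-beta, the product of NR1H2, is found in most cells, whereas LXR-alpha, the product of NR1H3, is prominent in liver, fat, gut and macrophages.

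Levels are FPKM, read pairs per kilobase of transcript divided by a size set for each library, so they can be compared between genes per length. Recovered reads summed to between 16059128 and 19971190 per library. The library size implied by the FPKM was not this sum. Its ratio to the recovered reads was 1.09 to 1.14 in PA+BMS and 0.888 to 0.976 in PA. It was 0.827 to 1.0345 in PA+OA and 1.029 to 1.097 in control, so the deposited scaling differed between groups. All 10 hepatocyte markers examined, albumin among them, stayed under 1 FPKM in every library, and 3 had no read. Of 6 bile duct markers only KRT7 reached 1 FPKM, while KRT19 and EPCAM did not. KRT7 was at 167 ± 24.6 FPKM in PA+BMS, 653 ± 229 FPKM in PA+OA, 614 ± 49.7 FPKM in PA and 506 ± 49.5 FPKM in control. Along the first principal component, with 54.4% of the variance, genes were ordered by transcript GC content (Spearman 0.68 between loading and GC content). PA+OA replicate 1 lay at 54.6 and PA+BMS replicate 3 at -51.5, each apart from its group. Results are therefore also given without these 2 outlying libraries, and after subtraction in every library of a smooth trend in GC content and transcript length, called GC correction here.

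The comparisons are named by what was added: the palmitate comparison is PA against control, the oleic acid comparison sets PA+OA beside PA, and the inhibitor comparison sets PA+BMS beside PA. Setting FPKM sums equal between libraries moved the median log2 change of all genes to -0.18 in the palmitate comparison, with 519 higher and 2905 lower calls, beside 1518 and 1754 as deposited. For the inhibitor comparison the median moved to 0.24, with 4582 higher and 1203 lower calls, beside 2982 and 3481 as deposited.

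LXR receptor and LPCAT3 transcripts were higher and MYLIP transcripts lower in PA than in control, and MYLIP was near its untreated level in both groups with an addition to palmitate. Of the 7 genes, 5 passed the filter of 1 FPKM in at least 3 libraries, and these were tested with limma on log2(FPKM + 1), adjusted by Benjamini-Hochberg over all 11856 tested genes. The palmitate comparison called 4 of the 5, and 27.6% of all tested genes. Of the 4, 3 rose and 1 fell, where 12.8% of all genes rose and 14.8% fell. With oleic acid added, 1 of the 5 was called, MYLIP, which rose, against 7.91% of all genes (4.01% higher, 3.91% lower). With the inhibitor added, 1 rose and 2 fell, a share near the 54.5% of all genes that were called (25.2% higher, 29.4% lower).

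Against control, 3 of the 5 genes were higher in PA+OA, where 36.3% of all genes were called (17.5% higher, 18.8% lower). In PA+BMS 0 of the 5 differed from control with limma, 1 had an unadjusted p under 0.05 (LPCAT3), and voom on recovered reads called 1, where 11.0% of all genes were called (4.77% higher, 6.25% lower). Between the additions, 2 genes were lower in PA+BMS than in PA+OA, where 49.6% of all genes were called (23.1% higher, 26.4% lower). The median log2 change of the 5 genes was 0.61 with palmitate, 0.20 with oleic acid added and -0.25 with the inhibitor added, beside 0.028, -0.0024 and -0.044 over all tested genes. Comparisons share libraries, those of PA above all, so opposite signs in them are not separate evidence.

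**Figure D1:**
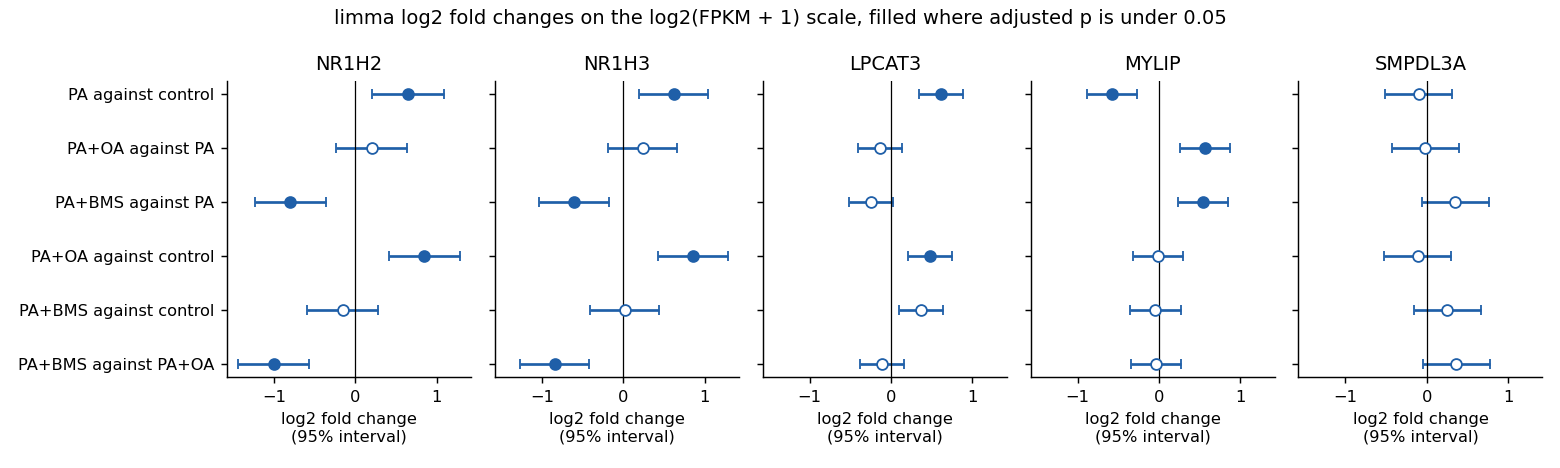
Fold changes of the 5 tested LXR genes in 6 comparisons. Each point is a limma log2 fold change on the log2(FPKM + 1) scale with its 95% interval, named with the treated group first, and is filled where the adjusted p was under 0.05. The receptor genes NR1H2 and NR1H3 show the same order of points, while MYLIP lies below 0 only in the palmitate comparison among its filled points.

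NR1H2 (ENSG00000131408, chromosome 19, 50329653 to 50382982, plus strand) was the more abundant receptor transcript per length in all libraries. Its level was 20.4, 17.4 and 15.3 FPKM in the PA+BMS libraries, 53.4, 30.6 and 29.1 FPKM in PA+OA, 32.1, 33.5 and 28.8 FPKM in PA, and 22.1, 17.4 and 19.97 FPKM in control. Every PA+OA and PA library lay above every PA+BMS and control library, and PA+OA replicate 1 stood far above the rest. NR1H3 (ENSG00000025434, chromosome 11, 47248300 to 47269032, plus strand) was measured at 5.85, 5.31 and 5.08 FPKM in PA+BMS, 15.1, 9.25 and 8.15 FPKM in PA+OA, 9.74, 8.95 and 7.61 FPKM in PA, and 5.81, 4.14 and 6.24 FPKM in control. The same separation held, with no overlap between PA+OA and PA on one side and PA+BMS and control on the other. The ratio of NR1H2 to NR1H3, in FPKM, was 3.26 ± 0.234 in PA+BMS, 3.47 ± 0.140 in PA+OA, 3.61 ± 0.274 in PA and 3.73 ± 0.499 in control (SD, n = 3 each), so the group means differed by less than the spread of the control libraries. In bulk RNA, fewer cells of a type and less RNA per cell cannot be told apart.

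**Figure D2:**
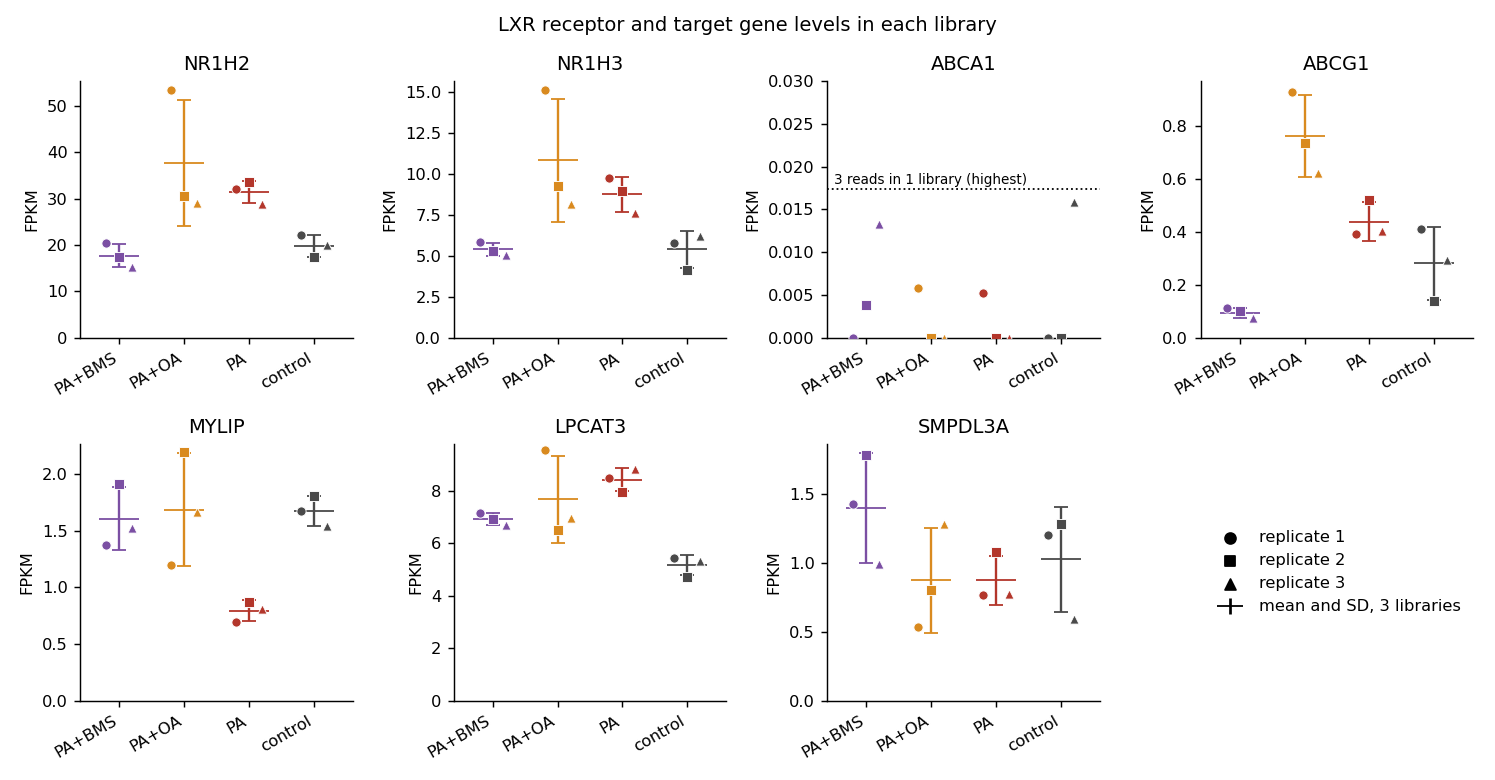
FPKM of each of the 7 LXR genes in all 12 libraries, with replicates as symbols and the mean and SD of 3 libraries as bars. ABCA1 has points only, since no library held more than 3 reads of it, and the dotted line marks the highest FPKM that 3 reads were worth. The receptor genes are higher in PA+OA and PA than in PA+BMS and control, ABCG1 is lowest in PA+BMS, and MYLIP is lowest in PA.

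With palmitate, NR1H2 rose to 31.5 ± 2.38 FPKM in PA, against 19.8 ± 2.36 FPKM in control, 1.59-fold (log2 fold change 0.65, SE 0.20, limma adjusted p = 0.0349). NR1H3 rose to 8.77 ± 1.08 FPKM in PA, against 5.40 ± 1.11 FPKM in control, 1.62-fold (log2 fold change 0.62, SE 0.20, limma adjusted p = 0.0368). Both calls were near the threshold. They were lost when PA replicate 1, 2 or 3 or control replicate 2 or 3 was left out, with limma adjusted p of up to 0.133 for NR1H2 and 0.153 for NR1H3, and after GC correction the changes were 0.27 and 0.35 (limma adjusted p = 0.0877 and 0.136). Neither passed with no filter (limma adjusted p = 0.106 and 0.113) or with FPKM sums set equal (limma adjusted p = 0.0509 and 0.0611).

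Oleic acid added to palmitate gave no call for either receptor. The log2 fold change in the oleic acid comparison was 0.20 for NR1H2 (95% interval -0.23 to 0.64) and 0.24 for NR1H3 (-0.19 to 0.67), and without the 2 outlying libraries these became -0.07 and -0.01. Against control the PA+OA cells were higher by 0.85 for NR1H2 and 0.86 for NR1H3 on the log2 scale (limma adjusted p = 0.00748 and 0.00623), and both calls stayed in each of the 12 leave-one-out fits and after GC correction (0.54 and 0.64, limma adjusted p = 0.00169 and 0.00676).

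With the inhibitor added, both receptor transcripts fell. NR1H2 was 1.78-fold lower at 17.7 ± 2.54 FPKM in PA+BMS, against 31.5 ± 2.38 FPKM in PA (log2 fold change -0.80, SE 0.20, limma adjusted p = 0.00929), and NR1H3 was 1.62-fold lower at 5.41 ± 0.393 FPKM, against 8.77 ± 1.08 FPKM (log2 fold change -0.60, SE 0.20, limma adjusted p = 0.0234). The NR1H2 call held without any single library, and the NR1H3 call was lost without PA+BMS replicate 2 or 3 or PA replicate 1 or 2 (limma adjusted p of up to 0.0751), and also with no filter, with FPKM sums set equal and with voom on recovered reads (limma adjusted p = 0.0757, 0.124 and 0.0638). After GC correction the changes were -0.29 and -0.28 and neither passed (limma adjusted p = 0.0587 and 0.188). Several genes used as markers of other cell types also fell in the inhibitor comparison, though every library was of the HepaRG line. KRT7, of bile duct cells, fell by 1.88 on the log2 scale, CSF1R, of macrophages, by 0.87, CDH5, of endothelium, by 0.66, and the stellate cell or fibroblast markers PDGFRB and COL1A1 by 0.78 and 0.28 (limma adjusted p = 0.000631, 0.00140, 0.00379, 0.00123 and 0.0270), while ACTA2 was not called. The summed level of the 4 endothelial markers was 0.343 to 0.459 FPKM in PA+BMS, 0.287 to 0.454 FPKM in PA+OA, 1.06 to 1.35 FPKM in PA and 1.36 to 1.82 FPKM in control, and that of the 6 stellate cell or fibroblast markers was 12.5 to 13.6 FPKM in PA+BMS, 14.9 to 17.4 FPKM in PA+OA, 17.1 to 18.2 FPKM in PA and 15.2 to 16.5 FPKM in control. Of the endothelial markers only CDH5 reached 1 FPKM, and PECAM1, VWF and KDR reached at most 0.147, 0.0406 and 0.00912 FPKM. On the stellate cell or fibroblast list, COL3A1 and DCN stayed under 1 FPKM and LRAT had no read. The part of all these markers in the receptor and ABCG1 levels was not tested. NR1H2 transcripts have 60.9% GC and NR1H3 transcripts 55.4%. Set against PA+OA, PA+BMS was lower by 1.003 for NR1H2 and by 0.84 for NR1H3 on the log2 scale (limma adjusted p = 0.00388 and 0.00733), and by 0.56 and 0.57 after GC correction (limma adjusted p = 0.00262 and 0.0162). PA+BMS and control were not called different, with log2 changes of -0.16 (95% interval -0.59 to 0.28) and 0.02 (-0.41 to 0.44).

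The tested protein-coding genes whose log2(FPKM + 1) followed NR1H2 most closely over the 12 libraries were RING1 (Pearson r = 0.996), ATG101 (0.995) and UBE2S (0.993). For NR1H3 they were TSC22D4 (0.990), COQ8B (0.987) and ZNF76 (0.986). These values are descriptions over libraries that share the same depth and base composition differences, and the 6 genes have a transcript GC content of 55.6% to 65.9%. NR1H3 shares 189 exon bases, 4.17% of its exon length, with ACP2 on the other strand.

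ABCA1, which hands cellular cholesterol and phospholipid to apolipoprotein A1, was at the limit of detection. ABCA1 (ENSG00000165029, chromosome 9, 104781002 to 104928237, minus strand) had 0, 1 and 3 reads in the PA+BMS libraries, 1, 0 and 0 reads in PA+OA, 1, 0 and 0 reads in PA, and 0, 0 and 3 reads in control. The highest library value was 0.0159 FPKM, and 3 reads were worth between 0.0116 and 0.0174 FPKM. No library held more than 3 reads, so no fold change is given, and a difference between groups was not detectable at this depth. Summed over the libraries of a group and scaled to the group's recovered reads (RPM), the level was 0.0709 in PA+BMS (95% Poisson interval 0.0193 to 0.181), 0.0186 in PA+OA (0.000471 to 0.104), 0.0184 in PA (0.000467 to 0.103) and 0.0587 in control (0.0121 to 0.172), intervals that cover counting error only.

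The ABCA1 promoter is shown because it carries the only LXR-type element found in the promoters at hand. An LXR element is known as a pair of AGGTCA half-sites in the same direction with 4 bases between them, and both strands were searched with at most 1 mismatch in each half-site. RefSeq promoters, 250 bases before to 50 after a gene start, were at hand for NR1H2, NR1H3, ABCA1, MYLIP and LPCAT3, with 8 promoters in all. The match, in capitals, lies on the strand opposite to the gene, 69 to 54 bases upstream of the start, and reads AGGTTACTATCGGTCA in its own direction with 1 mismatch in each half-site (RefSeq, GRCh38.p14, chr9:104928106-104928405, minus strand, read along the gene).
ABCA1 promoter: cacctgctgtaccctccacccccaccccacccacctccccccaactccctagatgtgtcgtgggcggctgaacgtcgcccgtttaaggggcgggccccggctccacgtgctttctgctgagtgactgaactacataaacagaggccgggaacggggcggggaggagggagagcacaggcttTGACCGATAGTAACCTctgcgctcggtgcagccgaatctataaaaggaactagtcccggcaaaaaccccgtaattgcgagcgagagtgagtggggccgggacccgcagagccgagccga
Of all 35116 promoters in the RefSeq table, 484 held such a match, 1.38%. An exact AGGTCA half-site on either strand was in 1 of the 8 promoters, 1 of the 4 of NR1H3, against 13.8% of all promoters. A match describes letters only, and no binding was measured.

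ABCG1, which exports cholesterol to high-density lipoprotein, was low but counted in every library, and it was lowest in PA+BMS and highest in PA+OA. ABCG1 (ENSG00000160179, chromosome 21, 42199689 to 42297244, plus strand) was measured at 0.111, 0.101 and 0.0741 FPKM in PA+BMS, 0.927, 0.734 and 0.621 FPKM in PA+OA, 0.391, 0.522 and 0.402 FPKM in PA, and 0.411, 0.139 and 0.294 FPKM in control. Every PA+OA library lay above every other library and every PA+BMS library lay below, while PA and control overlapped and control replicate 2 was the lowest outside PA+BMS. The recovered reads were 14, 14 and 9 in PA+BMS, 86, 79 and 72 in PA+OA, 40, 53 and 42 in PA, and 49, 15 and 30 in control. In RPM, the group sums gave 0.656 in PA+BMS (95% Poisson interval 0.462 to 0.904), 4.41 in PA+OA (3.86 to 5.01), 2.49 in PA (2.09 to 2.95) and 1.84 in control (1.49 to 2.25).

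**Figure D3:**
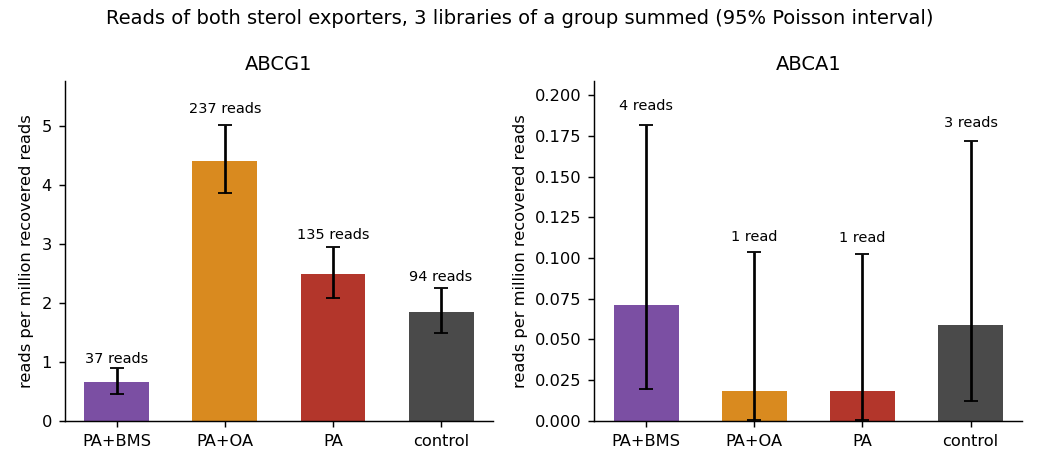
ABCG1 and ABCA1 reads scaled to all recovered reads (RPM), with the 3 libraries of each group summed. Bars start at 0, error bars are 95% Poisson intervals that cover counting error only, and the number of reads stands above each bar. ABCG1 runs from 37 reads in PA+BMS to 237 reads in PA+OA, whereas no group has more than 4 reads of ABCA1.

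ABCG1 lay under the level needed for the test on FPKM, so it was tested with limma voom on recovered reads over 14949 genes with at least 10 reads in at least 3 libraries, a fit added after the data were seen. It fell in the inhibitor comparison (log2 fold change -1.89, SE 0.40, limma adjusted p = 0.00357), where 44.9% of all genes passed. It was higher in PA+OA against control (1.37, SE 0.31, limma adjusted p = 0.00556, 32.4% of all genes) and lower in PA+BMS against PA+OA (-2.72, SE 0.38, limma adjusted p = 0.000589, 44.9% of all genes). The change with oleic acid added was 0.83 (SE 0.28, limma adjusted p = 0.113, 5.47% of all genes). With palmitate it was 0.54 (SE 0.33, limma adjusted p = 0.238, 22.9% of all genes). PA+BMS against control gave -1.35 (SE 0.42, limma adjusted p = 0.0575, 9.87% of all genes), and none of these 3 passed. An exact permutation test of the spread between groups of log2(FPKM + 0.1) over all 15400 ways to form 4 groups of 3 libraries gave p = 0.000195. This test was also added after the separation of the groups was seen. It was not run on other genes, so no share of all genes stands beside its p, and it is not separate evidence. The log2 ratio of mean FPKM was -2.20 in the inhibitor comparison and stayed between -2.33 and -1.82 when a library was left out or the scaling changed. In the palmitate comparison it was 0.64, and between 0.31 and 1.02 under the same changes. GC correction was not applied to ABCG1, and its voom test was not repeated with libraries left out, so the part of GC content in its changes was not tested.

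Macrophages are a cell type known for ABCG1, so their markers are given beside it. Of 8 macrophage markers, 7 stayed under 1 FPKM in every library and 3, CD163, C1QA and MARCO, had no read. PTPRC, the common leukocyte antigen, reached at most 0.0115 FPKM. The summed level of the 8 was 0.770 to 1.0 FPKM in PA+BMS, 2.27 to 2.54 FPKM in PA+OA, 1.83 to 2.38 FPKM in PA and 1.63 to 2.36 FPKM in control, and CSF1R was the marker above 1 FPKM. The part of these markers in the ABCG1 levels was not tested.

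MYLIP, also called IDOL, encodes the ubiquitin ligase that sends lipoprotein receptors to degradation, and its transcript was lowest in PA. MYLIP (ENSG00000007944, chromosome 6, 16129125 to 16148248, plus strand) was measured at 1.38, 1.92 and 1.53 FPKM in PA+BMS, 1.20, 2.19 and 1.67 FPKM in PA+OA, 0.690, 0.875 and 0.811 FPKM in PA, and 1.68, 1.81 and 1.54 FPKM in control. All PA libraries lay below all other libraries, and the other groups overlapped. The PA values rest on 35, 44 and 42 reads.

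MYLIP fell 2.12-fold to 0.792 ± 0.0937 FPKM in PA, against 1.68 ± 0.132 FPKM in control (log2 fold change -0.58 on the log2(FPKM + 1) scale, which understates changes of low genes, SE 0.14, limma adjusted p = 0.0150). It was 2.13-fold higher at 1.69 ± 0.499 FPKM in PA+OA, against 0.792 ± 0.0937 FPKM in PA (log2 fold change 0.57, SE 0.14, limma adjusted p = 0.0289), and 2.03-fold higher at 1.61 ± 0.278 FPKM in PA+BMS, against the same PA libraries (log2 fold change 0.54, SE 0.14, limma adjusted p = 0.0109). After GC correction these 3 changes were -0.49, 0.52 and 0.41 and all passed (limma adjusted p = 0.0149, 0.0111 and 0.0287). The call in the inhibitor comparison held without any single library. The call in the palmitate comparison was lost without PA replicate 1 or control replicate 2 (limma adjusted p of up to 0.0677), and that in the oleic acid comparison without PA+OA replicate 2 or 3 or any PA replicate (up to 0.115), and also with no filter, equal FPKM sums, only 2 groups fitted or voom (limma adjusted p between 0.0553 and 0.0999). PA+OA and control differed by -0.01 (95% interval -0.32 to 0.30), and PA+BMS and control by -0.04 (-0.35 to 0.27), neither called. The genes most like MYLIP over the 12 libraries were GMNN (Pearson r = 0.929), TES (0.916) and SNX5 (0.916), with a GC content of 40.9% to 43.7% beside 45.8% for MYLIP.

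Transcripts of 2 receptors that the MYLIP protein marks were lower with oleic acid added and higher with the inhibitor added. VLDLR, the very low density lipoprotein receptor, was at 3.86 ± 0.302 FPKM in PA+BMS, 1.27 ± 0.238 FPKM in PA+OA, 2.13 ± 0.264 FPKM in PA and 2.27 ± 0.153 FPKM in control. LRP8, a related receptor for reelin, was at 6.15 ± 0.499 FPKM in PA+BMS, 2.68 ± 0.429 FPKM in PA+OA, 4.51 ± 0.228 FPKM in PA and 6.09 ± 0.997 FPKM in control. Neither passed in the palmitate comparison, both were lower in the oleic acid comparison (-0.46 and -0.59, limma adjusted p = 0.0276 and 0.0133) and both were higher in the inhibitor comparison (0.64 and 0.37, limma adjusted p = 0.00365 and 0.0266). Both oleic acid calls held in 10 of the 12 leave-one-out fits (limma adjusted p of up to 0.113 and 0.0554). The inhibitor call held in all 12 for VLDLR and in 8 for LRP8 (limma adjusted p of up to 0.085 for LRP8). All 7 listed substrates and partners of MYLIP were tested, and 1 fell in the palmitate comparison, 1 rose and 2 fell in the oleic acid comparison, and 4 rose in the inhibitor comparison. Of all tested genes, 12.8% rose and 14.8% fell in the palmitate comparison, and 4.01% and 3.91% in the oleic acid comparison. For the inhibitor comparison these shares were 25.2% and 29.4%. Of the ubiquitin-conjugating enzymes that work with MYLIP, UBE2D1 rose by 0.63 in the oleic acid comparison, and UBE2D3 changed by -0.47 in the palmitate comparison and 0.42 in the inhibitor comparison (limma adjusted p = 0.00623, 0.0166 and 0.0128). The deubiquitinase gene USP8 rose by 0.45 in the inhibitor comparison (limma adjusted p = 0.0423), and was at -0.19 after GC correction.

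**Figure D4:**
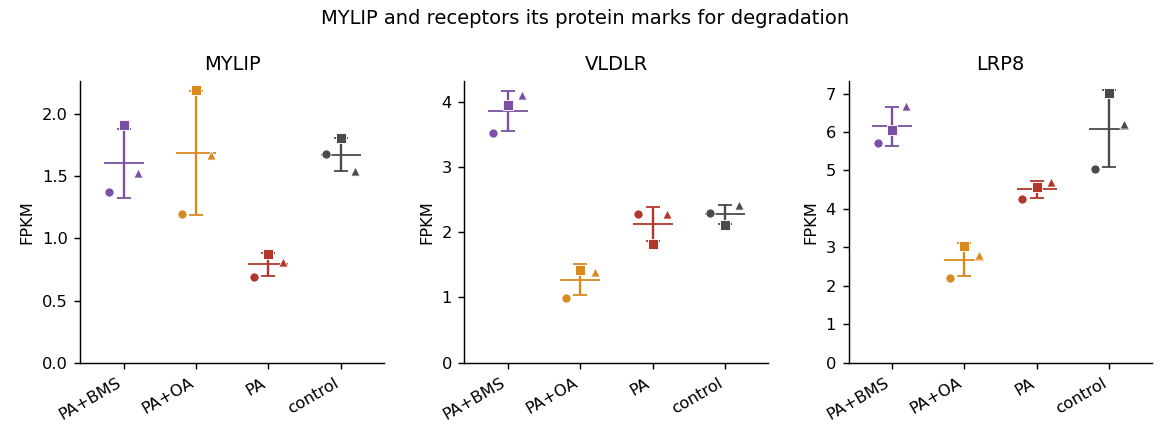
FPKM of MYLIP and of the transcripts of its substrate receptors VLDLR and LRP8 in all 12 libraries, with replicates as symbols (circle, square and triangle for 1, 2 and 3) and the mean and SD of 3 libraries as bars. MYLIP is lowest in PA, while VLDLR and LRP8 are lowest in PA+OA.

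LPCAT3, which puts polyunsaturated chains into lysophospholipids, was higher in PA and PA+OA than in control. LPCAT3 (ENSG00000111684, chromosome 12, 6976186 to 7018510, minus strand) was measured at 7.16, 6.94 and 6.72 FPKM in PA+BMS, 9.56, 6.50 and 6.97 FPKM in PA+OA, 8.50, 7.98 and 8.83 FPKM in PA, and 5.46, 4.73 and 5.31 FPKM in control. Every treated library lay above every control library. LPCAT3 rose 1.63-fold to 8.43 ± 0.428 FPKM in PA, against 5.16 ± 0.386 FPKM in control (log2 fold change 0.61, SE 0.12, limma adjusted p = 0.00737), and this call stayed in each of the 12 leave-one-out fits and after GC correction (0.43, limma adjusted p = 0.0188). In PA+OA against control it was 1.49-fold higher (log2 fold change 0.48, limma adjusted p = 0.0119), a call lost without control replicate 2 (limma adjusted p = 0.0560) and also with only these 2 groups fitted. In PA+BMS against control the change was 0.37 (95% interval 0.10 to 0.64, limma adjusted p = 0.0825) and passed without PA+OA replicate 1 (limma adjusted p = 0.00927) and after GC correction (limma adjusted p = 0.0266).

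Neither addition to palmitate gave a call for LPCAT3 over all libraries. The change was -0.14 in the oleic acid comparison (95% interval -0.41 to 0.14) and -0.25 in the inhibitor comparison (-0.52 to 0.02, limma adjusted p = 0.106), and without the 2 outlying libraries they were -0.29 and -0.23 and passed (limma adjusted p = 0.0308 and 0.0394). LPCAT3 shares 3100 exon bases, 65.6% of its exon length, with EMG1, a ribosome assembly gene on the other strand that reached 27.9 FPKM, and no strand setting is given, so reads may be divided uncertainly between them. EMG1 itself changed by 0.20 in the palmitate comparison (limma adjusted p = 0.333) and by -0.60 in the inhibitor comparison (limma adjusted p = 0.0118). The genes most like LPCAT3 over the 12 libraries were POR (Pearson r = 0.974), APC2 (0.963) and WDR62 (0.952).

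Another list held 12 genes, of lysophospholipid acyltransferases, of sphingomyelinases and of the SMPDL3A relative SMPDL3B, and 10 were tested. Of these, 2 rose and 1 fell in the palmitate comparison, 2 fell in the oleic acid comparison, and 2 rose and 5 fell in the inhibitor comparison. Among all tested genes 27.6%, 7.91% and 54.5% were called in these comparisons, in the same order. LPCAT1, which favours saturated chains, was at 14.7 ± 0.470 FPKM in PA+BMS, 7.22 ± 0.726 FPKM in PA+OA, 17.9 ± 0.196 FPKM in PA and 25.01 ± 3.68 FPKM in control. It fell by 0.45 in the palmitate comparison and by 1.20 in the oleic acid comparison on the log2 scale (limma adjusted p = 0.0182 and 0.000108). The palmitate call held in 8 of the 12 leave-one-out fits and the oleic acid call in all 12. In the inhibitor comparison, MBOAT7, which acts on lysophosphatidylinositol, changed by -0.68, AGPAT1 by -0.49 and AGPAT2 by -0.83, both of which make phosphatidate, and the sphingomyelinase gene SMPD2 by -1.01 (limma adjusted p = 0.00608, 0.0108, 0.0121 and 0.00560). AGPAT3 fell by 0.46 in the oleic acid comparison (limma adjusted p = 0.0287), a call kept in 7 of the 12 leave-one-out fits.

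SMPDL3A, an acid sphingomyelinase-like phosphodiesterase induced by LXR agonists in human macrophages, gave no call. SMPDL3A (ENSG00000172594, chromosome 6, 122789049 to 122809720, plus strand) was measured at 1.43, 1.78 and 0.987 FPKM in PA+BMS, 0.534, 0.799 and 1.28 FPKM in PA+OA, 0.764, 1.08 and 0.773 FPKM in PA, and 1.20, 1.28 and 0.588 FPKM in control. All groups overlapped. The log2 fold change was -0.10 in the palmitate comparison (95% interval -0.51 to 0.31), -0.02 in the oleic acid comparison (-0.43 to 0.40) and 0.35 in the inhibitor comparison (-0.06 to 0.76). The last passed without the 2 outlying libraries (0.48, limma adjusted p = 0.0430) and with FPKM sums set equal (0.55, limma adjusted p = 0.0474), and was 0.03 after GC correction. As for MYLIP, the log2(FPKM + 1) scale understates changes at this level. In the inhibitor comparison mean FPKM was 1.60-fold higher, and limma voom over genes with at least 10 reads gave 0.93 (SE 0.40, limma adjusted p = 0.0703).

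Partners and cofactors of LXR were called most often in the inhibitor comparison, as genes in general were. Of 18 listed, 15 were tested, and 1 rose and 2 fell in the palmitate comparison, 0 passed in the oleic acid comparison (2 at an unadjusted p under 0.05 with limma, and 0 called by voom), and 7 rose and 4 fell in the inhibitor comparison. The shares of all tested genes called with limma were 27.6%, 7.91% and 54.5%, in the same order. RXRB, the most abundant RXR transcript per length, was at 26.3 ± 4.46 FPKM in PA+BMS, 49.4 ± 17.0 FPKM in PA+OA, 41.7 ± 1.61 FPKM in PA and 24.3 ± 3.01 FPKM in control, and rose by 0.76 in the palmitate comparison and fell by 0.66 in the inhibitor comparison (limma adjusted p = 0.0206 and 0.0190). RXRA, another RXR partner of LXR, was at 3.12 ± 0.272 FPKM in PA+BMS, 3.64 ± 0.726 FPKM in PA+OA, 4.69 ± 0.286 FPKM in PA and 4.93 ± 0.253 FPKM in control, and fell by 0.47 in the inhibitor comparison (limma adjusted p = 0.00925). The coactivators NCOA1, NCOA2 and NCOA3 were higher by 0.70, 0.90 and 0.85 in the inhibitor comparison (limma adjusted p = 0.00946, 0.00623 and 0.00935), as were the corepressor subunit TBL1XR1 by 0.73 and the deacetylase SIRT1 by 0.79 (limma adjusted p = 0.00503 and 0.0110). In the palmitate comparison, TBL1XR1 fell by 0.61 and NCOA2 by 0.63 (limma adjusted p = 0.0149 and 0.0354). RXRG stayed under 1 FPKM in every library.

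Among 27 other LXR target genes, 13 were under 1 FPKM in every library and another 13 were tested. The low ones were ABCG5 and ABCG8, which export sterols into bile, the lipoprotein genes APOC1, APOC2 and APOC4, the lipid transfer genes PLTP and CETP, and NR0B2, TTC39B, MERTK, CD5L, UGT1A1 and CYP7A1. Of the tested ones, 4 rose and 2 fell in the palmitate comparison, 4 fell in the oleic acid comparison, and 1 rose and 5 fell in the inhibitor comparison. Beside them, 27.6%, 7.91% and 54.5% of all tested genes were called, in the same order. SREBF1, the master gene of fatty acid synthesis, was at 22.9 ± 0.702 FPKM in PA+BMS, 32.6 ± 7.56 FPKM in PA+OA, 38.1 ± 5.03 FPKM in PA and 25.7 ± 4.39 FPKM in control, and changed by 0.56 in the palmitate comparison and -0.71 in the inhibitor comparison (limma adjusted p = 0.0309 and 0.00791). FASN, fatty acid synthase, changed by 0.63, -1.11 and -0.69 in the palmitate, oleic acid and inhibitor comparisons (limma adjusted p = 0.0252, 0.00281 and 0.00988), and ABCA7, a transporter related to ABCA1, by 0.41 and -0.63 in the palmitate and inhibitor comparisons (limma adjusted p = 0.0366 and 0.00524). The palmitate calls held in 8 of the 12 leave-one-out fits for SREBF1, 8 for FASN and 6 for ABCA7 (limma adjusted p of up to 0.135, 0.103 and 0.123). Their inhibitor calls held in all 12. RNF145, a ubiquitin ligase of sterol sensing, had the reverse signs of SREBF1, with -0.87 in the palmitate comparison and 0.41 in the inhibitor comparison, and changed by -0.57 in the oleic acid comparison (limma adjusted p = 0.00187, 0.0204 and 0.0193). In the oleic acid comparison, the endocytic receptor gene LRP1 fell by 0.96 and the desaturase gene SCD by 0.75 (limma adjusted p = 0.000712 and 0.0149).

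Of 22 genes of sterol efflux and transport, 18 were tested, and 5 rose and 2 fell in the palmitate comparison, 2 fell in the oleic acid comparison, and 4 rose and 8 fell in the inhibitor comparison. Over all tested genes the called shares were 27.6%, 7.91% and 54.5%, in the same order. The acceptor gene APOA1, SOAT2, GRAMD1C and ABCG4 stayed under 1 FPKM in every library. SCARB1, the receptor for high-density lipoprotein, was at 40.6 ± 4.08 FPKM in PA+BMS, against 67.7 ± 3.91 FPKM in PA (log2 fold change -0.73, limma adjusted p = 0.00436). CAV1, of caveolae, fell to 6.77 ± 0.529 FPKM in PA, against 13.8 ± 0.748 FPKM in control (log2 fold change -0.93, limma adjusted p = 0.00134), and LCAT, which esterifies cholesterol on lipoproteins, rose by 0.65 (limma adjusted p = 0.00540). GRAMD1B, which moves sterol to the endoplasmic reticulum, and the transporter gene ABCA2 fell with either addition, by 0.78 and 0.85 in the oleic acid comparison and by 0.73 and 0.77 in the inhibitor comparison (limma adjusted p = 0.00250, 0.00377, 0.00312 and 0.00406), while the sterol carrier gene STARD4 rose by 0.83 in the inhibitor comparison (limma adjusted p = 0.00342).

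Genes that make or clear LXR ligands were in part very low. Of 12 listed, CH25H, CYP27A1, CYP46A1, CYP7B1, SULT2B1 and SULT2A1, which make or modify oxysterols, stayed under 1 FPKM in every library, and 6 were tested. Of the low ones 3 had no read, CH25H, CYP7B1 and SULT2A1, while SULT2B1 had 110 reads over all 12 libraries, CYP27A1 40 and CYP46A1 3. In the palmitate comparison 1 rose, DHCR7, by 0.78 (limma adjusted p = 0.00865). In the oleic acid comparison 0 passed with limma, 3 had an unadjusted p under 0.05, and voom called 1. Limma called 27.6%, 7.91% and 54.5% of all tested genes in the palmitate, oleic acid and inhibitor comparisons. In the inhibitor comparison, 2 rose, SQLE by 0.78 and CYP51A1 by 0.48 (limma adjusted p = 0.00735 and 0.00894), and 4 fell, EBP by 0.75, DHCR7 by 0.45, the oxysterol dehydrogenase gene HSD3B7 by 0.89 and CYP11A1, which cleaves the cholesterol side chain, by 0.49 (limma adjusted p = 0.0164, 0.0365, 0.00678 and 0.0281). After GC correction CYP11A1 was at 0.014. The inhibitor calls of EBP, DHCR7 and CYP11A1 held in 9, 8 and 9 of the 12 leave-one-out fits.

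Over these 6 lists together, 69 genes were tested. In the palmitate comparison 21 passed, 30.4% of them beside 27.6% of all genes, and between 5 and 42 passed when a library was left out, with PA+OA replicate 1, PA replicates 1 and 2 and control replicates 2 and 3 moving the count by over 1.5 times. In the oleic acid comparison 11 passed, 15.9% beside 7.91% of all genes, and between 7 and 24 without a library, with PA+OA replicate 1 and PA replicates 1 and 3 moving it as far. In the inhibitor comparison 46 passed, 66.7% beside 54.5% of all genes, and between 32 and 55 without a library. After GC correction the counts were 12, 14 and 18 (17.4%, 20.3% and 26.1%, beside 16.0%, 13.1% and 22.5% of all genes). Without the 2 outlying libraries they were 49, 29 and 49 (71.0%, 42.0% and 71.0%, beside 56.7%, 25.4% and 55.2% of all genes). With FPKM sums set equal, 5 rose and 14 fell in the palmitate comparison, beside 13 and 8 as deposited, and 27 rose and 11 fell in the inhibitor comparison, beside 20 and 26 as deposited.

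**Figure D5:**
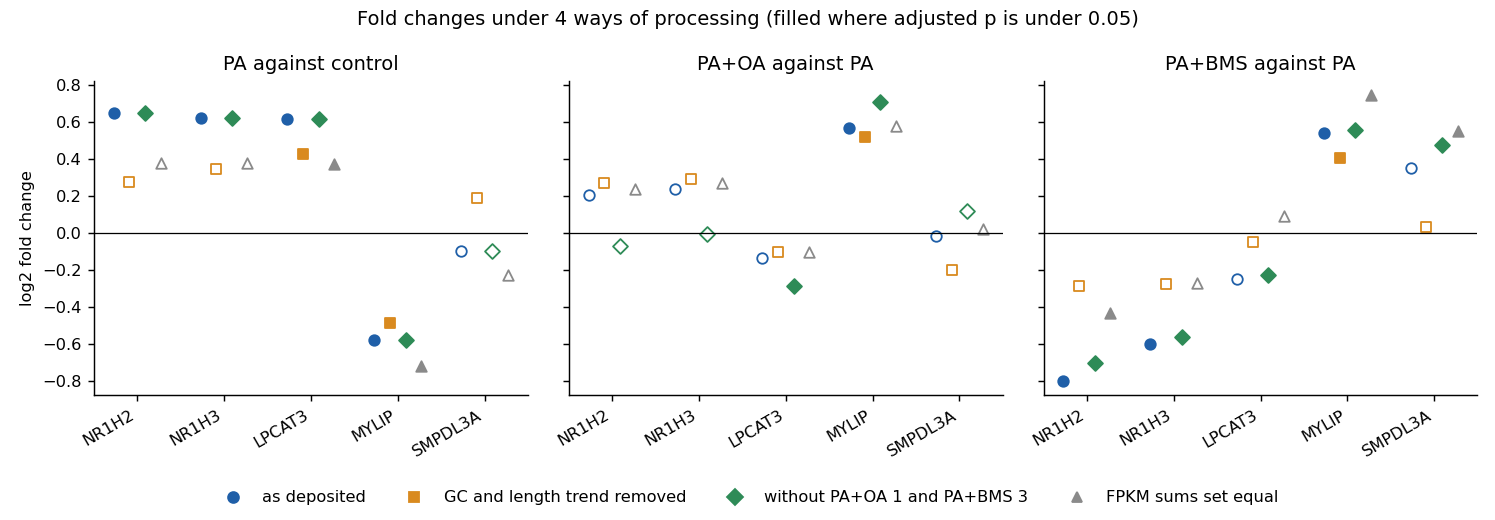
Log2 fold changes of the 5 tested LXR genes in the palmitate, oleic acid and inhibitor comparisons under 4 ways of processing, filled where the limma adjusted p was under 0.05. MYLIP is filled in the palmitate comparison and in the inhibitor comparison under each of the 4, while NR1H2 and NR1H3 are open in both after GC correction.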

How the data were processed

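Messenger RNA of HepaRG cells was measured in 12 libraries, with 3 in each of 4 groups taken from the labels. The deposited values are FPKM, as the table is named, for 58735 genes. CASAVA, HISAT2 2.0.5 and featureCounts 1.5.0-p3 are named, without their roles, in the submitters' processing notes. The sources used here state neither build, nor annotation, nor strand setting. Coordinates are on GRCh38, because the identifiers and symbols of every gene and the positions of 58724 match GENCODE 29. The deposited FPKM times gene length fell on whole multiples of a step within each library (100% of values, tolerance 0.001), so whole reads per gene could be recovered.

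The deposited FPKM were tested as log2(FPKM + 1) with limma 3.58.1 (R 4.3.3). The filter was 1 FPKM or more in 3 or more libraries. The model had 1 coefficient for each group, used all 12 libraries, and left 8 residual degrees of freedom, with a trended eBayes step, two-sided tests and Benjamini-Hochberg adjustment at 0.05 within each of 6 comparisons. The procedure was run on simulated counts that had no GC trend and no outlying library, so that run does not cover these features of the data. The members and gene lists were chosen with earlier results of these data known, and some listed genes are not reported here and were left out of the list counts. Named genes are the members, up to 6 called genes per list with the smallest p in the palmitate, oleic acid and inhibitor comparisons, list genes under 1 FPKM in every library, and the 3 genes most like each called member. EMG1, RXRB and single marker genes were added after their values were seen. Chi-square per gene between replicates was 3.63 to 74.8, above sampling noise, so no library was treated as a repeat of another.

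Alternatives were another pseudocount (0.1), another filter (none, or 5 FPKM), scaling by median of ratios, equal FPKM sums, quantiles, fits of 2 groups alone, a replicate block, GC correction with natural splines of 5 degrees of freedom in GC content and length, limma voom on recovered reads, and leaving out libraries. Tests of ABCG1 were added after the data were seen. Promoters come from a RefSeq table on GRCh38.p14. No set test was run. Plots were made in Python 3.11.15 (matplotlib 3.10.9).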

Additional observations from a re-analysis of the deposited data

How the results depend on the processing

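The number of the 5 tested LXR genes that passed depended on the processing. For palmitate against control it was 4, falling to 2 with no filter, equal FPKM sums or GC correction, and 1 to 4 with single libraries left out. With oleic acid added it was 1, and 0 with no filter, a filter at 5 FPKM (which MYLIP does not reach), equal FPKM sums, only 2 groups fitted or voom, 2 without both outlying libraries, and 0 to 1 with single libraries left out. With the inhibitor added it was 3, but 1 after GC correction, 2 with voom or a filter at 5 FPKM, 4 with only 2 groups fitted, 5 without both outlying libraries, and 2 to 4 with single libraries left out. With no filter the count was 3 only with ABCG1 (limma adjusted p = 0.0274), which is not among the 5, and NR1H3 did not pass. With equal FPKM sums it was 3, with SMPDL3A in place of NR1H3. PA+BMS against control gave 0, and 1 with equal FPKM sums, GC correction, voom or both outlying libraries left out, and 0 to 1 with single libraries left out. PA+OA against control gave 3 and PA+BMS against PA+OA gave 2, each 2 to 3 with single libraries left out. With no filter these 2 counts were 4 and 3, each with ABCG1 included (limma adjusted p = 0.0122 and 0.00337). With only 2 groups fitted, PA+OA against control gave 2, because LPCAT3 did not pass. The cause of these shifts, and the part of the deposited library sizes in them, was not tested. Voom on recovered reads over 14949 genes does not use those sizes. It gave 0.49 for NR1H2 and 0.52 for LPCAT3 in the palmitate comparison, beside 0.65 and 0.61 on FPKM. In the inhibitor comparison it gave -0.57 and -0.01, beside -0.80 and -0.25. Changes of MYLIP and SMPDL3A, which the log2(FPKM + 1) scale understates, were larger with voom in both comparisons.

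Signs of member changes turned only where the change had not passed. Without both outlying libraries the oleic acid comparison gave -0.071 for NR1H2 (-0.071 to 0.36 with single libraries left out), -0.0071 for NR1H3 (-0.0071 to 0.40) and 0.12 for SMPDL3A (-0.17 to 0.12), and SMPDL3A was 4.34e-05 with median-of-ratios scaling and 0.021 with equal FPKM sums. SMPDL3A in the palmitate comparison was 0.19 after GC correction, and LPCAT3 in the inhibitor comparison 0.088 with equal FPKM sums. MYLIP in PA+OA against control was 0.021 with quantile normalization, 0.027 after GC correction and 0.13 without both outlying libraries (-0.14 to 0.13 with single libraries left out), and SMPDL3A 0.021 without both (-0.28 to 0.021). MYLIP in PA+BMS against control was 0.021 with equal FPKM sums and 0.018 with voom (-0.13 to 0.022 with single libraries left out), and NR1H3 ranged from -0.13 to 0.11. MYLIP in PA+BMS against PA+OA was 0.17 with equal FPKM sums and 0.19 with voom (-0.17 to 0.10 with single libraries left out), and LPCAT3 0.19 with equal FPKM sums, 0.051 after GC correction, 0.098 with voom and 0.059 without both outlying libraries (-0.21 to 0.039 with single libraries left out). Among list genes that had passed in the inhibitor comparison, LCAT turned to 0.054, CYP11A1 to 0.014, UBE2D3 to -0.17 and USP8 to -0.19 after GC correction.

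Of all genes, 3272, 938 and 6463 passed in the palmitate, oleic acid and inhibitor comparisons, and 1891, 1556 and 2666 after GC correction. With a replicate block 4652, 1139 and 7083 passed, and the block changed no call of an LXR gene. Same-numbered libraries deviated together in 9 of 18 pairs (correlation over 0.1, range -0.28 to 0.56, median 0.11). Libraries with different numbers did so in 13 of 36 pairs (range -0.54 to 0.40, median -0.092). These values do not settle whether the numbers pair libraries. The labels state no pairing, so the main fit used none. Depth limited ABCA1, with at most 3 reads in a library, and ABCG1, with 9 to 86.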
